A study of Bos taurus with 8 samples.

Results

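Forkhead factors are DNA-binding proteins that share a winged-helix domain, and 10 of their genes were examined here in chondrocytes of bovine knee cartilage: *FOXO1*, *FOXO3*, *FOXO4*, *FOXA2*, *FOXA3*, *FOXC1*, *FOXC2*, *FOXF1*, *FOXF2* and *FOXP1*. They were taken by gene name from the 24596 genes of the deposited count table. A row was found for 9 of them, and *FOXC1*, which has no row under that name, was not analysed here. RNA-Seq was available for wild-type superficial zone chondrocytes (SZCs) and wild-type deep zone chondrocytes (DZCs), with 2 libraries per zone. The cells came from the knees of calves aged 1 to 2 weeks, were released by enzyme digestion, and grew for 3 days in medium with serum, so that every library describes cultured cells and not cartilage as dissected. Each cartilage core gave a superficial and a deep slice, the slices of a zone were collected by joint, and the RNA-Seq samples are described as duplicate biological samples. The 4 ATAC-Seq samples were not analysed here.

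FOXO proteins act downstream of insulin and growth factor receptors. Kinases of the AKT family phosphorylate them and hold them in the cytoplasm, and when these kinases are less active FOXO proteins enter the nucleus and switch on genes of autophagy, oxidative stress defence and cell cycle arrest. Their activity is therefore set largely on the protein, and mRNA levels do not report it. In articular cartilage FOXO factors are known to maintain the tissue and to influence *Prg4*, the gene of the joint lubricant lubricin. FOXA2 and FOXA3 promote hypertrophy, the terminal maturation of growth plate chondrocytes, while FOXC and FOXF factors shape the mesenchyme of the skeleton and respond to hedgehog signals. FOXP1 is a repressor that acts in the endochondral skeleton.

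The libraries held between 19918970 and 21890549 counts, and levels are given in CPM, the count of a gene scaled to a common library size, after normalization by the trimmed mean of *M* values (TMM). *COL2A1*, the gene of the main cartilage collagen, took between 6.31% and 24.5% of the counts, with the highest share in DZC replicate 1. *PRG4* separated the zones as the labels state, at 3166 and 2024 CPM in SZCs and 15.3 and 61.5 CPM in DZCs. Of the 8 chondrocyte markers, all were counted in every library. DZC replicate 1 stood apart from the other libraries in several marker lists. The summed level of 8 chondrocyte markers was 120684 and 123310 CPM in SZCs, 485945 CPM in DZC replicate 1 and 188466 CPM in DZC replicate 2. The sum of 7 proliferation markers was 170 and 192 CPM in SZCs, 16.7 CPM in DZC replicate 1 and 300.0 CPM in DZC replicate 2. The sum of 6 markers of synovial and fibrous tissue was 16492 and 24716 CPM in SZCs, 3312 CPM in DZC replicate 1 and 13307 CPM in DZC replicate 2. In bulk libraries such as these, fewer cells of a type and less RNA per cell cannot be told apart.

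None of the 9 forkhead genes passed the test between the zones. All 9 passed the filter on low counts. In edgeR's exact test 0 were called at the false discovery rate (FDR) threshold of 0.05, either higher in SZCs or higher in DZCs, and 0 had an unadjusted p-value below 0.05. Of all 12857 genes tested, 2.93% were called (2.23% higher in SZCs and 0.700% higher in DZCs) and 9.09% had an unadjusted p-value below 0.05. DESeq2 called 0 of the 9, where it called 3.09% of all genes, and the quasi-likelihood test of edgeR called 0 of the 9 and 0 of all genes, although 1126 had an unadjusted p-value below 0.05 in it. The log2 fold changes of SZCs over DZCs lay between -1.02 and 1.39, with a median of -0.17 against -0.04 over all genes tested. The sign of this median was not stable. It was 0.16 with a scaling by library totals, which moved the median of all genes to 0.26, and 0.33 without DZC replicate 1, where that of all genes was 0.01. For 3 genes, *FOXO3*, *FOXP1* and *FOXF1*, both SZC libraries were above both DZC libraries, an arrangement found in 21.0% of all genes tested. For *FOXO1* and *FOXO4* both DZC libraries were above both SZC libraries, as in 20.5% of all genes tested. The libraries of the zones overlapped for *FOXA2*, *FOXA3*, *FOXC2* and *FOXF2*.

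**Figure D1:**
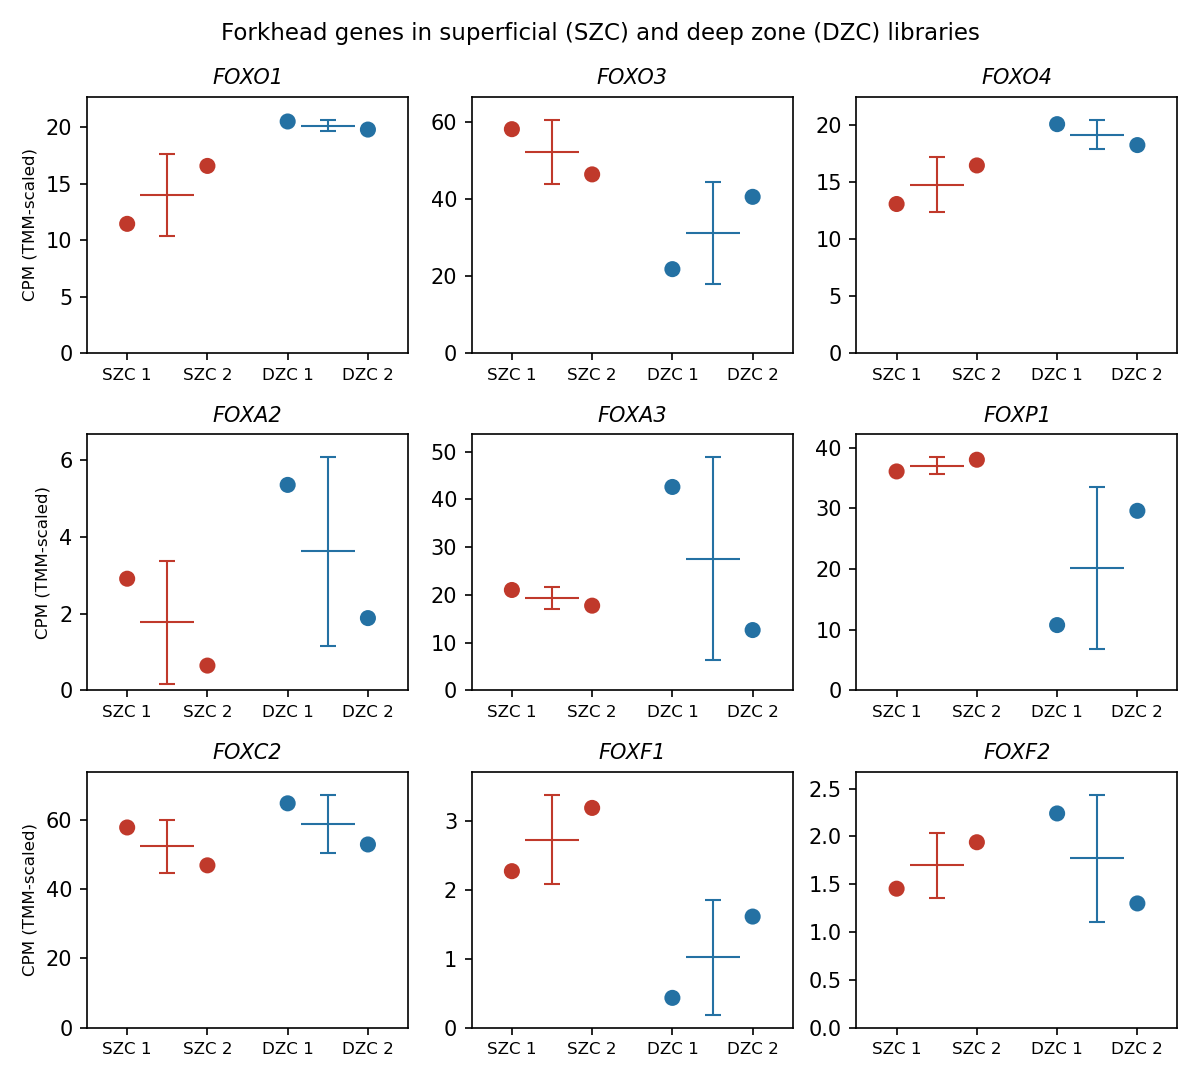
TMM-scaled CPM (linear axes from 0, a separate scale in each panel) of the 9 forkhead genes in the SZC (red) and DZC (blue) libraries. Points are libraries, and each bar with whiskers is the mean ± SD of the 2 libraries of a zone. *FOXO3*, *FOXP1* and *FOXF1* are highest in SZCs and lowest in DZC replicate 1, and *FOXA3* is highest in DZC replicate 1 and lowest in DZC replicate 2.

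Of the FOXO genes, *FOXO3* (ENSBTAG00000011234), which encodes the family member best known for stress resistance and longevity, was at 58.2 and 46.4 CPM in SZCs and at 21.8 and 40.6 CPM in DZCs. The SZC libraries were the higher pair, and DZC replicate 2 lay much closer to them than DZC replicate 1 did. Its log2 fold change was 0.74 (standard error, SE, 0.43, 95% interval -0.10 to 1.59, edgeR exact test FDR 0.699), a 1.68-fold higher fitted level in SZCs that was not beyond the spread between libraries. *FOXO1* (ENSBTAG00000044105), the main FOXO effector of insulin signalling, was at 11.4 and 16.6 CPM in SZCs and at 20.5 and 19.8 CPM in DZCs. Here the DZC libraries were the higher pair and differed little from each other. The log2 fold change of *FOXO1* was -0.52 (SE 0.40, 95% interval -1.32 to 0.27, edgeR exact test FDR 0.873), a 1.44-fold higher level in DZCs. *FOXO4* (ENSBTAG00000004879), an X-linked member regulated in the same way by AKT, had the same order of zones, at 13.0 and 16.4 CPM in SZCs and 20.0 and 18.2 CPM in DZCs. Its log2 fold change was -0.38 (SE 0.39, 95% interval -1.14 to 0.39, edgeR exact test FDR 0.968). All 3 intervals include 0, and none of them excludes a change of 2-fold in the direction of its estimate.

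The FOXO genes were also set against each other within each library, where library scaling cancels and gene length does not affect the comparison between zones. The ratio of *FOXO3* to *FOXO1* counts was 5.08 and 2.80 in SZCs and 1.06 and 2.05 in DZCs. Both SZC ratios were above both DZC ratios. On the log2 scale the mean ratio was 1.91 ± 0.61 (SD, n = 2) in SZCs and 0.56 ± 0.67 (SD, n = 2) in DZCs, a difference of 1.35 or 2.56-fold. For each of the 5 pairs compared, a two-sided exact permutation test over the libraries returned p = 0.333, which is the lowest value possible with 2 libraries per zone, so that no pair could reach 0.05. With each library left out in turn the difference lay between 0.88 and 1.83. The ratio of *FOXO4* to *FOXO1* moved far less, at 1.14 and 0.990 in SZCs and 0.976 and 0.919 in DZCs, a log2 difference of 0.17. These ratios were chosen after the values were seen and restate the order of libraries given above. The *FOXO3* to *FOXO1* ratio also differed between the libraries of 1 zone, by more than between the nearest libraries of the 2 zones.

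**Figure D2:**
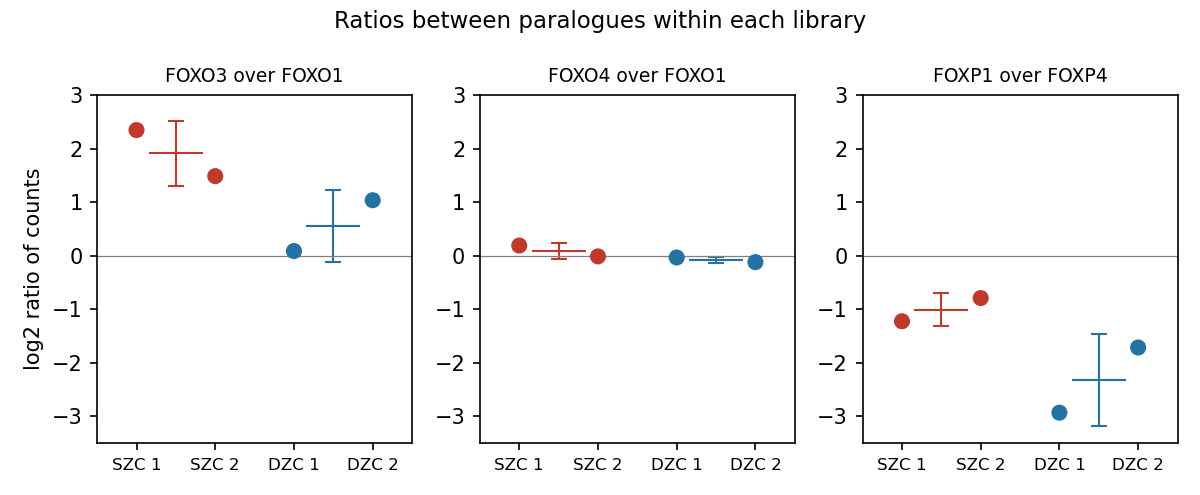
Log2 ratio of counts between paralogues within each library, for SZCs (red) and DZCs (blue), with the mean ± SD of the 2 libraries of a zone. The *FOXO3* to *FOXO1* ratio lies between 1.48 and 2.34 in SZCs and between 0.08 and 1.03 in DZCs, the *FOXO4* to *FOXO1* ratio stays between -0.12 and 0.19, and the *FOXP1* to *FOXP4* ratio is lowest in DZC replicate 1.

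*FOXP1* (ENSBTAG00000016533) was at 36.1 and 38.0 CPM in SZCs and at 10.8 and 29.6 CPM in DZCs. The SZC libraries were nearly equal, and the DZC libraries differed from each other by 2.75-fold. Its log2 fold change was 0.87 (SE 0.54, 95% interval -0.18 to 1.93, edgeR exact test FDR 0.757). Its paralogue *FOXP4* did not share this pattern, at 84.5 and 65.9 CPM in SZCs and 82.3 and 97.3 CPM in DZCs. The ratio of *FOXP1* to *FOXP4* counts was accordingly 0.427 and 0.577 in SZCs and 0.131 and 0.304 in DZCs, which did not overlap. Another paralogue, *FOXP2*, had both SZC libraries above both DZC libraries, at 6.72 and 6.16 CPM against 2.92 and 3.54 CPM, with a log2 fold change of 0.99 (SE 0.53, edgeR exact test FDR 0.619).

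*FOXF1* (ENSBTAG00000000009), a mesenchymal target of hedgehog signalling, had 50 and 74 counts in SZCs against 7 and 36 counts in DZCs, which is 2.27 and 3.19 CPM against 0.435 and 1.61 CPM. The SZC libraries were the higher pair, and the count in DZC replicate 1 was close to the floor of 3 counts below which no level is read. Its log2 fold change, 1.39, was the largest of the 9 genes, but it had a wide error (SE 0.81, 95% interval -0.21 to 2.98, edgeR exact test FDR 0.735). *FOXF1* is also known in vessel walls and stroma, so marker lists of such cells were examined. The sum of 7 endothelial markers was 5.63 and 11.9 CPM in SZCs and 3.92 and 7.98 CPM in DZCs, and 1 of the 7 had at most 3 counts in every library. The sum of 5 mural and smooth muscle markers was 46.1 and 144 CPM in SZCs and 60.0 and 350 CPM in DZCs. The endothelial sum was lowest in DZC replicate 1, as *FOXF1* and 36.5% of all genes tested were, and 5 of its 7 markers had at most 3 counts there. Unlike *FOXF1*, this sum was higher in DZC replicate 2 than in SZC replicate 1, and the mural sum was lowest in SZC replicate 1. The part of such cells in the level of *FOXF1* was not tested.

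*FOXC2* (ENSBTAG00000012465), a regulator of skeletal mesenchyme, differed little between the zones. It had 1271 and 1087 counts in SZCs against 1040 and 1179 counts in DZCs, at 57.7 and 46.8 CPM against 64.7 and 52.8 CPM. The values of the zones interleaved. The log2 fold change was -0.17 (SE 0.35, 95% interval -0.85 to 0.52, edgeR exact test FDR 1), and its sign turned to 0.16 with a scaling by library totals only. *FOXF2* (ENSBTAG00000026896), the paralogue of *FOXF1*, was low and overlapped fully, at 1.45 and 1.94 CPM in SZCs and 2.24 and 1.30 CPM in DZCs. Its log2 fold change was -0.05 (95% interval -1.38 to 1.28, edgeR exact test FDR 1), and its sign turned to 0.32 with a scaling by library totals and to 0.11 by totals without *COL2A1*. In the RefSeq gene order of the later cow assembly ARS-UCD2.0, *FOXF1* and *FOXC2* are separated by a single protein-coding gene, *MTHFSD*, and *FOXL1* follows *FOXC2*. *FOXF1*, *MTHFSD* and *FOXC2* did not pass the test, and *FOXL1* was not tested. The ratio of *FOXF1* to *FOXC2* counts was 0.0393 and 0.0681 in SZCs and 0.00673 and 0.0305 in DZCs, *MTHFSD* was at 6.36 and 7.54 CPM in SZCs and 10.1 and 7.22 CPM in DZCs, and *FOXL1* had at most 5 counts in any library. The log2 difference of the *FOXF1* to *FOXC2* ratio between zones was 1.85, between 0.76 and 2.94 with a library left out, and it rests on 7 counts of *FOXF1* in DZC replicate 1.

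The FOXA genes varied more between the libraries of 1 zone or both than between the zone means. *FOXA3* (ENSBTAG00000012104) was at 21.0 and 17.8 CPM in SZCs and at 42.6 and 12.6 CPM in DZCs, so that the highest and the lowest of the 4 values were both in DZCs. The log2 fold change was -0.51 (SE 0.61, 95% interval -1.71 to 0.69, edgeR exact test FDR 0.990). *FOXA2* (ENSBTAG00000012407) had 64 and 15 counts in SZCs against 86 and 42 counts in DZCs, at 2.91 and 0.646 CPM against 5.35 and 1.88 CPM. Both genes were higher in replicate 1 than in replicate 2 of each zone, by 4.50-fold for *FOXA2* in SZCs. The log2 fold change of *FOXA2* was -1.02 (SE 0.94, 95% interval -2.86 to 0.82, edgeR exact test FDR 0.952).

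Genes of chondrocyte hypertrophy, among which FOXA factors have known targets, were counted next to the FOXA genes. Of the 13 listed, 9 were tested, 1 was called (higher in DZCs), and 4 had an unadjusted p-value below 0.05, all of them higher in DZCs. Of all genes tested, 0.700% were called higher in DZCs, and 387 of 12857 were higher in DZCs at an unadjusted p-value below 0.05. The median log2 fold change of the 9 was -1.14, against -0.04 over all genes tested. The median depended on the libraries used and on which genes passed the low-count filter. Without DZC replicate 1, 12 genes of the list were tested, and the median was -2.55. The median of 12 genes was also -2.33 with all 4 libraries unfiltered, -2.21 without SZC replicate 1 and -2.59 without SZC replicate 2. With 1 library in a zone, a gene can pass the filter by its count in a single library. *IBSP* and *SP7* were not tested with the filter and all 4 libraries. Without DZC replicate 1 the log2 fold changes were -11.9 for *MMP13*, -7.38 for *IBSP*, -4.80 for *SP7* and -0.93 for *SPP1*. They rest on DZC replicate 2 as the lone DZC library, with the dispersion from the SZC pair alone. Without DZC replicate 2, where 9 were tested, *COL10A1* and *SPP1* were higher in SZCs (log2 fold changes of 7.23 and 2.49). *IHH* and *PTH1R* were higher in DZCs (-4.88 and -1.66). The median was then 0.02, and 4 of the 9 were negative. *IBSP* and *SP7* are also bone markers, and the sum of 4 bone markers was 18.4 CPM in DZC replicate 2 and at most 0.50 CPM in the other libraries. The part of bone cells in this list was not tested. The gene called was *IHH*, the hedgehog ligand of prehypertrophic chondrocytes, at 0.591 and 0.215 CPM in SZCs and 12.1 and 2.15 CPM in DZCs, a log2 fold change of -4.12 (SE 1.01, edgeR exact test FDR 0.016). The call was lost in the quasi-likelihood test (FDR 0.321 by edgeR), which called 0 of all genes tested. In edgeR's exact test the call was also lost without SZC replicate 1, SZC replicate 2 or DZC replicate 1, with log2 fold changes of -5.01, -3.58 and -2.40. The order of the DZC libraries split this list. *IHH* and *PTH1R*, the receptor for parathyroid hormone-related protein, were higher in DZC replicate 1, as *FOXA2* and *FOXA3* were, with *PTH1R* at 45.8 CPM there and 17.5 CPM in DZC replicate 2. *COL10A1* and *ALPL*, which mark late hypertrophy and mineralization, had 0 and 1 counts in DZC replicate 1 and 221 and 445 counts in DZC replicate 2. *RUNX2*, a driver of hypertrophy, was at 7.47 CPM in DZC replicate 1 and 17.2 CPM in DZC replicate 2. The DZC library with more *FOXA2* and *FOXA3* was therefore the one with the least *COL10A1*, *ALPL* and *RUNX2*.

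Whether forkhead genes were called depended on which DZC libraries were used. The difference between the DZC libraries exceeded 2-fold for 4 of the 9 forkhead genes, *FOXA2*, *FOXA3*, *FOXF1* and *FOXP1*, as it did for 25.2% of all genes tested, and the SZC libraries differed by over 2-fold for *FOXA2* alone, against 7.58% of all genes tested. DZC replicate 1 was the lowest of the 4 libraries for 3 of the 9 (36.5% of all genes tested). When DZC replicate 2 was left out, 4 of the 9 passed edgeR's exact test. *FOXP1* had a log2 fold change of 1.80 (FDR 3.07e-06), *FOXO3* one of 1.28 (FDR 0.000941), *FOXF1* one of 2.65 (FDR 0.0146) and *FOXA3* one of -1.12 (FDR 0.00199) by that test. In the same setting 20.7% of all genes tested passed, the dispersion came from the SZC pair alone, and the lone DZC library was assumed to vary as the SZC libraries did. Without SZC replicate 1 or SZC replicate 2, 0 of the 9 passed, where 0.436% and 1.13% of all genes did. When DZC replicate 1 was left out, 0 of the 9 passed edgeR's exact test, where 6.67% of all genes tested did, and 0 had an unadjusted p-value below 0.05. The log2 fold changes were then 0.33 for *FOXP1*, 0.37 for *FOXO3*, 0.76 for *FOXF1* and 0.62 for *FOXA3*, the last with its sign turned. *FOXO1* and *FOXO4* stayed below 0 with each library left out, between -0.82 and -0.29 and between -0.55 and -0.22. The low proliferation and fibrous tissue sums and the high chondrocyte sum of DZC replicate 1 moved with these differences, and their part in them was not tested.

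**Figure D3:**
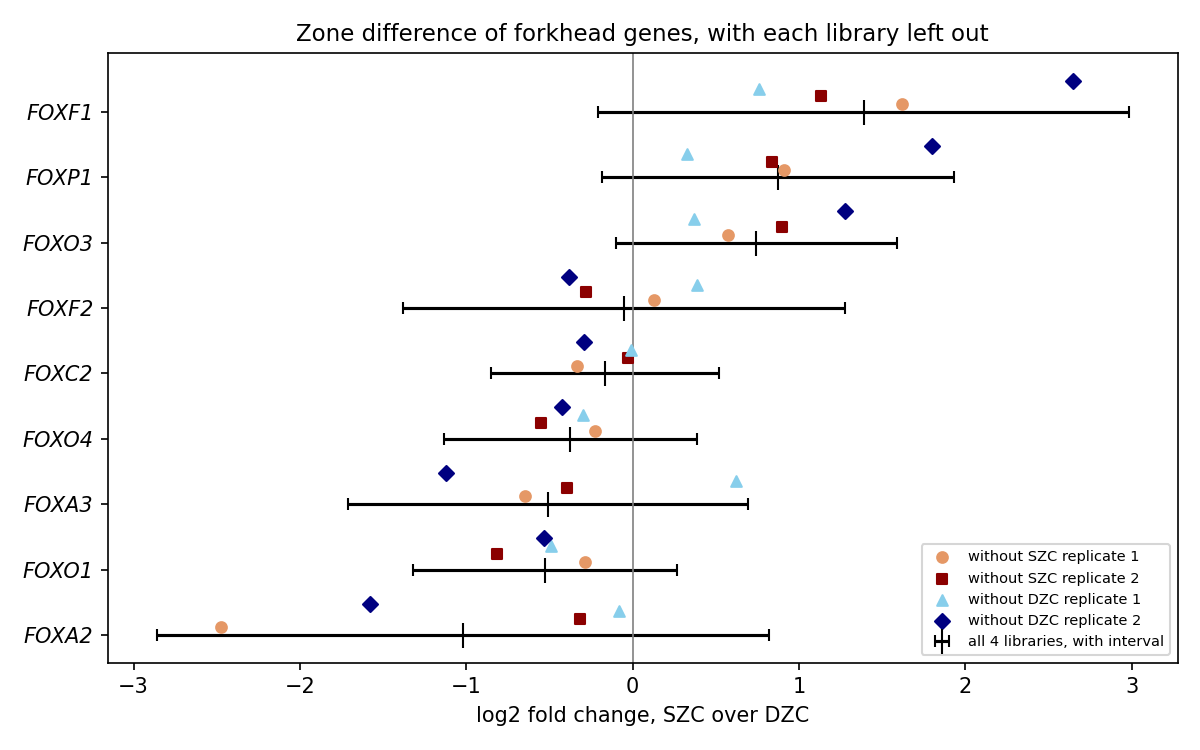
Log2 fold change of SZCs over DZCs for the 9 forkhead genes from edgeR's exact test. Black ticks with whiskers are the estimates from all 4 libraries with 95% intervals, and symbols are the estimates with a library left out. The 9 whisker ranges all cross 0, and the symbols without DZC replicate 1 and without DZC replicate 2 lie on opposite sides of 0 for *FOXA3* and *FOXF2*.

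Of 34 other forkhead genes listed, 13 were tested and 0 were called by edgeR's exact test, with 0 at an unadjusted p-value below 0.05. Of all genes tested 2.93% and 9.09% met these thresholds. DESeq2 called 0 as well. Their median log2 fold change was 0.11, but -0.10 without DZC replicate 1, 0.00165 without SZC replicate 1, 0.35 without DZC replicate 2 and 0.51 with a scaling by library totals. A further 9 had 0 counts in all 4 libraries, among them *FOXA1*, *FOXD3* and *FOXN4*, 8 had at most 17 counts in any library, and 4 were not analysed here. The smallest p-values belonged to *FOXK1*, a repressor of autophagy genes, at 28.0 and 26.5 CPM in SZCs and 16.4 and 17.8 CPM in DZCs, and to *FOXP2*. *FOXK1* had a log2 fold change of 0.67 (SE 0.35, edgeR exact test FDR 0.603). *FOXM1*, the forkhead factor of dividing cells, had 131 and 117 counts in SZCs, 6 in DZC replicate 1 and 163 in DZC replicate 2. It followed the 7 proliferation markers, whose best known member *MKI67* was at 77.4 and 84.3 CPM in SZCs and at 4.54 and 129 CPM in DZCs. When DZC replicate 2 was left out, 1 of 14 other forkhead genes tested, *FOXM1*, was called, against 20.7% of all genes.

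The inputs that control FOXO proteins were counted in the same way. Of 22 listed genes of the PI3K and AKT pathway, 21 were tested and 0 were called, with 0 at an unadjusted p-value below 0.05 in edgeR's exact test, where 2.93% and 9.09% of all genes tested met these thresholds. The median log2 fold change of the list was 0.11, but -0.05 without DZC replicate 1, 0.39 without DZC replicate 2 and 0.37 with a scaling by library totals. *PIK3R1*, a regulatory subunit of PI3K, had the smallest p-value, at 33.0 and 30.8 CPM in SZCs and 11.7 and 27.0 CPM in DZCs (edgeR exact test FDR 0.822). Like *FOXO3*, *FOXP1* and *FOXF1*, it was lowest in DZC replicate 1. *PIK3CD*, a catalytic subunit, was low throughout, between 0.311 and 0.905 CPM. Of 27 genes for proteins that modify or bind FOXO proteins, 26 were tested and 0 were called, again with 0 at an unadjusted p-value below 0.05 and a median log2 fold change of 0.09, which was 0.27 without DZC replicate 2 and 0.37 with a scaling by library totals. The coactivators *CREBBP* and *EP300*, which acetylate FOXO proteins, came nearest. *CREBBP* was at 160 and 133 CPM in SZCs and 85.1 and 97.3 CPM in DZCs, and *EP300* at 105 and 94.7 CPM in SZCs and 49.8 and 77.3 CPM in DZCs. Their FDR values were 0.558 and 0.708 by edgeR's exact test. DESeq2 called 0 genes of either list. Without DZC replicate 2, where 20.7% of all genes tested were called, edgeR's exact test called 4 of the PI3K and AKT genes (*PIK3R1*, *SGK1* and *RICTOR* higher in SZCs, *PIK3R3* higher in DZCs) and 3 of the modifiers (*EP300* higher in SZCs, *SIRT3* and *PRMT1* higher in DZCs). The FDR of *PIK3R1* was then 0.000208 and that of *EP300* 0.0081 by the same edgeR test.

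Among known FOXO targets, single genes passed and in both directions. *PDK4*, which restrains glucose oxidation in mitochondria and is a classic FOXO target, was at 10.1 and 6.98 CPM in SZCs and 0.435 and 0.807 CPM in DZCs. Every SZC library was far above every DZC library, with a log2 fold change of 3.74 (SE 0.65, edgeR exact test FDR 1.17e-05), or 13.4-fold. *PDK4* was the 1 gene called of 10 tested in the list of insulin response and metabolism, where 2.93% of all genes tested were called. An unadjusted p-value below 0.05 in edgeR's exact test was found for 2 of the 10, 1 in each direction, against 9.09% of all genes tested. The median log2 fold change of the list was -0.06, but it lay between -0.24 (without SZC replicate 2) and 0.50 (without DZC replicate 2) with a library left out, and was 0.22 with a scaling by library totals. *GADD45A*, a stress-induced gene of growth arrest and DNA repair, went the other way, at 21.2 and 43.7 CPM in SZCs and 95.0 and 99.3 CPM in DZCs. Its log2 fold change was -1.58 (SE 0.45, edgeR exact test FDR 0.0239), and it was the 1 gene called of 12 tested in the list of oxidative stress defence. The median of that list was -0.14, and 0.14 with a scaling by library totals. In the same edgeR test 4 of the 12 had an unadjusted p-value below 0.05, 3 higher in SZCs and 1 higher in DZCs. The call of *GADD45A* was lost in the quasi-likelihood test (FDR 0.317 by edgeR), with libraries scaled by their totals (edgeR exact test FDR 0.310) or by totals without *COL2A1* (FDR 0.0933), and without SZC replicate 1 (FDR 1) or SZC replicate 2 (FDR 0.103) in edgeR's exact test. That of *PDK4* was lost in the quasi-likelihood test (FDR 0.137 by edgeR), which called 0 of all genes tested. In edgeR's exact test it was also lost without SZC replicate 1 (log2 fold change 3.46).

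The other targets did not pass edgeR's exact test with TMM and all 4 libraries, and *TXNIP*, an inhibitor of thioredoxin, passed it with a scaling by library totals (log2 fold change 1.23, FDR 0.0402). *SESN1* and *SESN3*, which encode sestrins that limit oxidative stress and mTOR activity, had both SZC libraries above both DZC libraries. *SESN1* was at 21.8 and 18.0 CPM in SZCs and 8.96 and 9.14 CPM in DZCs, and *SESN3* at 49.4 and 53.0 CPM in SZCs and 29.5 and 31.7 CPM in DZCs, with FDR values of 0.127 and 0.383 by edgeR's exact test. In the list of oxidative stress defence, leaving out a DZC library added calls in the same test. Without DZC replicate 1 these were *SESN1* (log2 fold change 1.12, FDR 0.0316) and *TXNIP* (1.32, FDR 0.00433), where 6.67% of all genes tested were called. Without DZC replicate 2, where 20.7% were called, the list had 3 calls higher in SZCs, *SESN1* (1.16, FDR 0.0103), *SESN3* (0.81, FDR 0.0374) and *SOD2* (1.19, FDR 0.00801), and 3 higher in DZCs, *GADD45A*, *PRDX5* (-0.81, FDR 0.0371) and *TXN2* (-0.76, FDR 0.0363). In the metabolic list *TRIB1*, which encodes a pseudokinase, was called without DZC replicate 1 (log2 fold change -1.07, edgeR exact test FDR 0.0044), and *PNPLA2*, a triglyceride lipase, without DZC replicate 2 (log2 fold change -0.91, edgeR exact test FDR 0.0146). Of 18 autophagy genes, all tested, 0 were called and 0 had an unadjusted p-value below 0.05 by edgeR's exact test. These thresholds were met by 2.93% and 9.09% of all genes tested. Their log2 fold changes were small, between -0.53 and 0.45, and 15 of the 18 were negative with a median of -0.19, where 6870 of the 12857 genes tested were negative. The nearest were *SQSTM1*, an autophagy receptor, with a log2 fold change of -0.49, and *BNIP3*, a mitophagy receptor, with one of 0.45. Of the 18, 14 were higher in DZC replicate 1 than in DZC replicate 2, and without DZC replicate 1 only 10 of the 18 were negative, with a median of -0.05. The direction also turned with the scaling, since 4 of the 18 were negative with a median of 0.16 by library totals, and 11 of the 18 with a median of -0.04 by totals without *COL2A1*. *SQSTM1* was at -0.08 without DZC replicate 1, and without DZC replicate 2 it was called at -0.80 (edgeR exact test FDR 0.0474), as was *TFEB*, a master regulator of lysosome genes, at -1.11 (edgeR exact test FDR 0.0118), while *BNIP3* was at 0.16 without SZC replicate 1. Of 19 listed genes of cell cycle and survival, 14 were tested and 0 were called, with 0 at an unadjusted p-value below 0.05 by edgeR's exact test with all 4 libraries. Of all genes tested, 2.93% and 9.09% met these thresholds. The median log2 fold change of the list was 0.02, but it lay between -0.08 (without SZC replicate 1) and 0.24 (without DZC replicate 2) with a library left out. *CCND2*, a cyclin that FOXO proteins repress, was at 16.1 and 26.3 CPM in SZCs and 32.6 and 31.0 CPM in DZCs, and *CITED2*, a transcriptional coregulator, at 47.8 and 66.3 CPM in SZCs and 33.2 and 47.3 CPM in DZCs. *CCND1*, another cyclin, was at 5.13 and 8.88 CPM in SZCs and 2.43 and 24.8 CPM in DZCs, and was called in opposite directions by edgeR's exact test, higher in DZCs without DZC replicate 1 (log2 fold change -1.82) and higher in SZCs without DZC replicate 2 (log2 fold change 1.54). *PLK1* and *KLF6* were also called higher in SZCs in the latter setting. DESeq2 called 0 genes of the autophagy and cell cycle lists, where it called 3.09% of all genes. The quasi-likelihood test, which called 0 of all genes tested, could add nothing on these lists.

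**Figure D4:**
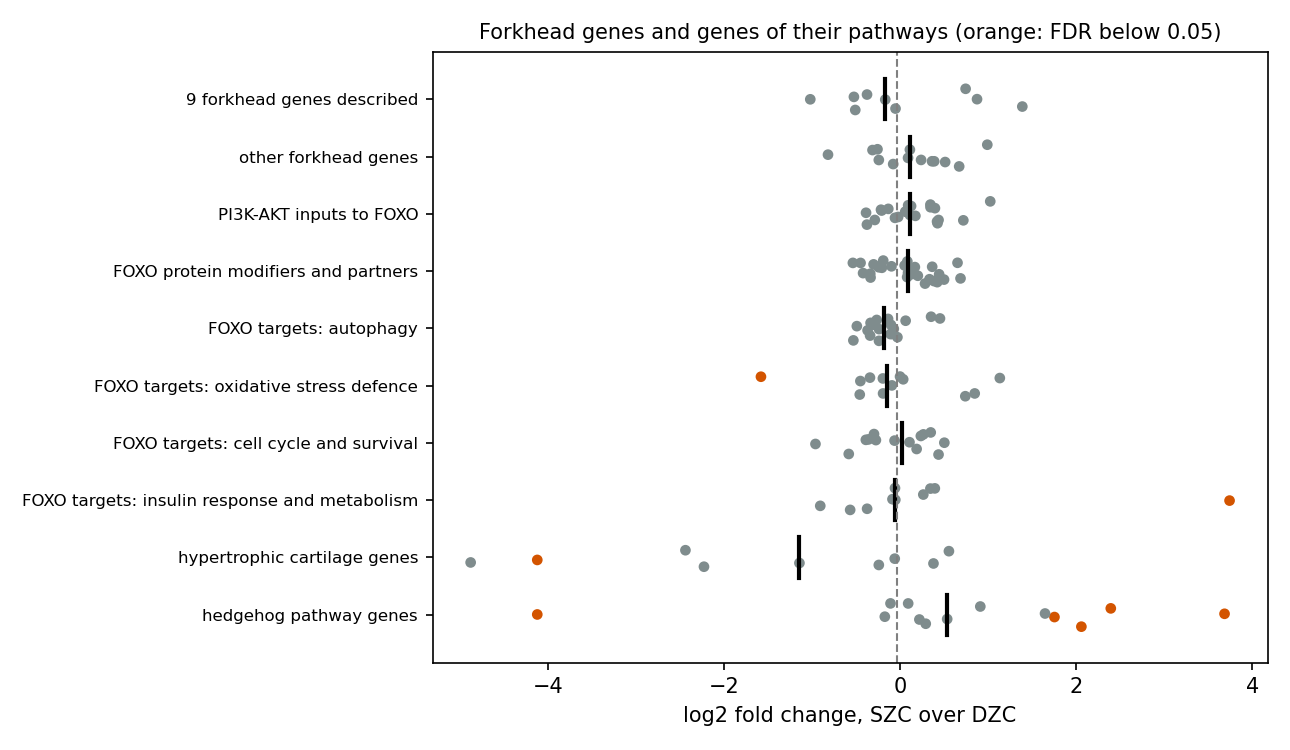
Log2 fold change of SZCs over DZCs for each tested gene of the forkhead lists and of the lists of their pathways (points, spread vertically for legibility), with the median of each list (black bar) and of all 12857 genes tested (dashed line, -0.04). Orange points were called by edgeR's exact test at the 0.05 threshold: 0 among the forkhead genes, 1 each among oxidative stress, metabolic and hypertrophic genes, and 5 among hedgehog genes, where *IHH* appears in the last 2 lists.

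Hedgehog pathway genes, upstream of FOXF and FOXC factors in other mesenchyme, were called in both directions. Of 15 listed, 13 were tested and 5 were called, 4 higher in SZCs and 1 higher in DZCs, where 2.93% of all genes tested were called. *GAS1*, *BOC* and *CDON*, which encode co-receptors that bind the ligand, were higher in SZCs with log2 fold changes of 3.69, 2.06 and 2.39. *GAS1* was at 48.5 and 29.6 CPM in SZCs and 1.62 and 4.39 CPM in DZCs. *GLI3*, the main repressor of the pathway, was at 99.5 and 72.3 CPM in SZCs and 16.5 and 34.3 CPM in DZCs, a log2 fold change of 1.75, and *IHH* was higher in DZCs. The quasi-likelihood test of edgeR called 0 of these 5, with FDR values between 0.162 and 0.321, and 0 of all genes tested. *GAS1* alone kept its call in edgeR's exact test with each library left out, since without SZC replicate 1 the FDR was 0.218 for *BOC*, 0.202 for *CDON* and 0.823 for *GLI3*, and without SZC replicate 2 it was 0.119 for *GLI3*. With libraries scaled by totals, or by totals without *COL2A1*, the call of *GLI3* was lost as well (FDR 0.0789 and 0.0628 by edgeR's exact test).

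The genes whose libraries were ordered most like those of 3 forkhead genes were found by the distance between log2(CPM + 0.5) values, centred on each gene's mean over the 4 libraries. For *FOXO1* they were *GLIPR2*, *STRBP* and *PYROXD1*, at distances of 0.04, 0.07 and 0.07. For *FOXO3* they were *KMT2D* (0.05), which encodes a histone methyltransferase, *EP400* (0.07), a chromatin remodeller, and *RABGAP1L* (0.08). For *FOXP1* they were *FOLH1B* (0.06), *TET2* (0.09), a DNA demethylation enzyme, and *TRIM2* (0.11). *FOLH1B* was at 0.0622 CPM in DZC replicate 1, under the floor of 3 counts, so that its distance there depends on the added 0.5. *KMT2D*, for example, was at 128 and 106 CPM in SZCs and 50.1 and 89.9 CPM in DZCs. With only 4 libraries many genes lie close by, and 1609, 728 and 313 genes were within a distance of 0.5 of *FOXO1*, *FOXO3* and *FOXP1*.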

How the data were processed

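The authors sequenced 75-bp single-end SMART-Seq v4 libraries, aligned them with STAR 2.5.2b to Ensembl UMD 3.1 (cow), and deposited raw counts per gene made without regard to strand, so that reads of genes overlapping on opposite strands cannot be told apart. The deposited table of the authors' own comparison (log2 fold changes and FDR) was used only to fill 19 blank gene names. Counts between 19918970 and 21890549 per library limit precision, so that the floor of 3 counts equals 0.129 to 0.187 CPM, counting error only. Values under this floor, such as those of *COL10A1*, *ALPL* and *FOLH1B* in DZC replicate 1, are printed as counted. They say only that the gene was below the floor there.

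Libraries were grouped by their labels. Zones were compared in edgeR 4.0.16 (R 4.3.3) with the default low-count filter, TMM, the exact test and Benjamini-Hochberg adjustment over 12857 genes, at an FDR of 0.05. Standard errors and 95% intervals follow from the negative binomial model. P-values rest on the spread between 2 libraries per zone, with the dispersion of each gene drawn toward a trend over all genes tested. With a library left out, the spread came from the remaining pair alone. Replicate libraries differed by more than counting error (chi-square per degree of freedom 61.9 and 303), which repeat libraries of a single sample could also do. The alternatives were edgeR's quasi-likelihood test, also with the replicate number as a block, DESeq2 1.42.0, other filters and scalings, and each library left out. Members and gene lists were chosen with earlier results of these data known. Named genes were all members, up to 4 called genes per list (otherwise the 2 smallest p-values), and the 3 nearest patterns. *PTH1R*, *RUNX2*, *COL10A1*, *ALPL*, *SESN1*, *SESN3*, *TXNIP*, *TRIB1*, *CCND1*, *MMP13*, *IBSP*, *SPP1*, *SP7*, *SGK1*, *RICTOR*, *PIK3R3*, *SIRT3*, *PRMT1*, *SOD2*, *PRDX5*, *TXN2*, *PNPLA2*, *TFEB*, *PLK1*, *KLF6*, *FOXM1*, *MKI67*, *FOXP4* and the neighbours of members were added after their values were seen, as were the ratios between paralogues. Scripts were tested on simulated data. Exon lengths were not used, so levels were not compared between genes.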

Additional observations from a re-analysis of the deposited data

How the results depend on the processing

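Each zone comparison was repeated under 8 alternatives that used all 4 libraries, and a further 4 times with 1 library left out. Under the 8, 0 of the 9 forkhead genes were called. *FOXO1*, *FOXO3*, *FOXO4*, *FOXA2*, *FOXF1* and *FOXP1* had the same direction in all 12 settings. *FOXC2* turned to 0.16 with library totals alone and *FOXF2* to 0.32, and *FOXF2* was at 0.11 with totals that leave out *COL2A1*; totals alone shifted the median of all genes to 0.26 from -0.04.

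With a library left out, log2 fold changes ranged from 0.37 to 1.28 for *FOXO3*, 0.33 to 1.80 for *FOXP1* and 0.76 to 2.65 for *FOXF1*. Those of *FOXA2* ranged from -2.48 (without SZC replicate 1) to -0.08 (without DZC replicate 1). The ranges were -1.12 to 0.62 for *FOXA3*, -0.33 to -0.01 for *FOXC2* and -0.38 to 0.39 for *FOXF2*. *FOXF2* was at 0.13 without SZC replicate 1 and 0.39 without DZC replicate 1. Calls ranged from 0 to 4 for the 9 forkhead genes, 0 to 1 for other forkhead genes, 0 to 4 for PI3K and AKT inputs, 0 to 3 for FOXO modifiers, 0 to 2 for autophagy, 0 to 6 for oxidative stress, 0 to 3 for cell cycle, 0 to 2 for metabolism, 0 to 7 for hypertrophy and 1 to 7 for hedgehog genes. Over all genes they ranged from 58 to 2725, from 52 to 1607 higher in SZCs and from 6 to 1118 higher in DZCs, against 377, 287 and 90. The highest numbers came without DZC replicate 2, except for hypertrophy, where they came without DZC replicate 1. For metabolism, leaving out either DZC library gave the same number. Without DZC replicate 1, 12 hypertrophic genes were tested, and a gene could pass the filter by its count in DZC replicate 2 alone.

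The quasi-likelihood test without a block called 0 genes in all, with 1126 at an unadjusted p-value below 0.05, so 0 higher in SZCs, 0 higher in DZCs, and 0 of the oxidative stress, metabolic, hypertrophic and hedgehog genes. With library totals alone 44 genes were higher in DZCs, 86.7% of calls were higher in SZCs against 76.1%, and *TXNIP* was called among oxidative stress genes in place of *GADD45A*. With totals without *COL2A1* 0 oxidative stress genes were called. DESeq2 called 2 hypertrophic genes, adding *RUNX2*. The cause of these changes was not tested. Blocking on the replicate number, the quasi-likelihood test called 347 genes, 277 shared with the 377. Among the 347 were 2 hypertrophic genes, *PDK4*, *GADD45A* and the 5 hedgehog genes not called without the block (FDR 0.0085 for *GAS1* to 0.0423 for *GLI3*). This blocked test called 0 of the 9 forkhead genes. An unadjusted p-value below 0.05 was found in it for 4 of the 9 and for 12.8% of all genes tested. Each core gave slices of both zones, but the sources used do not say that libraries with the same number came from the same joint. Their deviations from the zone means had a correlation of 0.42 over genes, which are not independent.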

Other observations

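*SESN1* and *FOXO3* lie near each other in the RefSeq gene order of ARS-UCD2.0, with *ARMC2* between them. *ARMC2* was at 1.32 and 1.16 CPM in SZCs and 1.24 and 1.57 CPM in DZCs, and *AFG1L*, on the far side of *FOXO3*, at 3.86 and 4.09 CPM in SZCs and 3.55 and 4.35 CPM in DZCs. Both SZC libraries were above both DZC libraries for *FOXO3* and *SESN1* and overlapped for these neighbours. *PAX1*, a regulator of sclerotome next to *FOXA2*, was at 0.50 and 0.517 CPM in SZCs and 1.31 and 2.69 CPM in DZCs, with a log2 fold change of -1.97 (edgeR exact test FDR 0.232). Its DZC libraries had the opposite order to those of *FOXA2*. The choice of these genes followed the sight of their values.

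Markers of other cell types were also summed. The sum of 6 blood and immune markers was between 6.47 and 28.3 CPM, lowest in DZC replicate 1, and 1 of the 6 had at most 3 counts in every library. The sum of 3 adipocyte markers was between 4.30 and 5.77 CPM, and 2 of the 3 had at most 3 counts in every library. The sum of 4 bone markers was 0.50 and 0.474 CPM in SZCs, 0.124 CPM in DZC replicate 1 and 18.4 CPM in DZC replicate 2. All 6 superficial zone markers were called higher in SZCs by edgeR's exact test, and they were used here to check the labels.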
